A study of Mus musculus with 5 samples.

Results

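The epidermis of mouse dorsal skin was followed through 41 genes of its keratinocyte layers, listed by name: 6 genes of the basal layer, 6 of the spinous layer, 9 of the desmosome, 13 of the cornified envelope and granular layer, 4 of desquamation and 3 of the lipid barrier. Each gene was represented by its brightest probe set (highest mean log2 intensity over the 5 arrays) among the probe sets that the platform annotation maps to that symbol alone. A probe set is a group of short oligonucleotides on the array that together read 1 transcript. Such a probe set was found for 40 of the 41 genes, of 18193 genes so represented on the arrays, and 38 of the 40 were bright enough to be tested among 12955 genes. *Dsg3*, a desmosomal cadherin gene, had no probe set of a single symbol and was not analysed here. *Krt2* and *Sprr1b* lay below the filter on low values.

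The study asked which genes differ in *Clock* mutant skin before its hair growth falls behind. CLOCK and BMAL1 form a transcription factor that drives circadian gene expression. Whole dorsal skin was taken on postnatal day 23 from 2 *Clock* mutant mice and 3 wild-type littermates, all on a C57BL/6J background. The study describes this skin as telogen, the resting phase of the hair cycle. In its time course of other wild-type mice it classed day 23 as early anagen, the start of the growth phase. It also showed wild-type follicles of day 23 in anagen I, the first stage of that phase. The mutant allele reduces the transcriptional activity of CLOCK and is carried in every tissue, and the number of mutant copies in the arrayed mice was not given in the labels used here. The first *Clock* mutant replicate was a male, and the second mutant and all wild-type mice, 4 in number, were females. RNA of each mouse was hybridized to an array of its own, and the values are MAS5 signal intensities. Because whole skin was used, fewer cells of a type and less RNA per cell cannot be told apart.

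The epidermis renews itself from a basal layer that is anchored to the basement membrane. Basal keratinocytes express the keratin pair KRT5 and KRT14, and cells that leave this layer switch to KRT1 and KRT10 and strengthen their desmosomes, the junctions that couple keratin filaments of neighbouring cells. In the granular layer they make loricrin, involucrin, filaggrin and small proline-rich proteins, which transglutaminases cross-link into the cornified envelope. Lipids fill the space between the dead cells, and proteases then cut the last junctions so that cells are shed. The basal genes are also active in the outer root sheath of the hair follicle, and the envelope genes in the upper follicle, so that in whole skin these genes do not separate the surface epidermis from the follicle mouth.

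The basal *Krt5*, *Krt14* and *Trp63*, the suprabasal *Krt1* and *Krt10* and the cornified *Lor*, *Flg* and *Ivl* lay above the filter of 56.7 on every array. Of 18193 genes, 12955 passed that filter on their mean, so passing it does not set the epidermis apart from other cell types. The *Krt10* probe set gave the highest signal of its array on both *Clock* mutant arrays and on wild type replicate 1, and whether it was close to saturation was not tested. The array of *Clock* mutant replicate 1 stood apart in its hair shaft and root sheath genes. There the 13 tested of 21 listed hair shaft and root sheath genes had a median of 2.38 on the log2 scale above the wild-type mean. The median was 0.76 in *Clock* mutant replicate 2 and -0.23 to 0.59 in wild type. The filter used the mean over all 5 arrays, so genes high on this array alone could enter the 13. Over the 20 genes of the list with a probe set, tested or not, the summed intensity was 11866 against 1326 to 2564 on the others. The *Gapdh* control had a 3' to 5' signal ratio, a measure that increases as RNA breaks down, of 1.05 on that array and 0.86 to 0.988 on the others. The actin control did not set it apart, at 1.21 against 1.14 to 1.23. The pyruvate carboxylase control had a ratio of 54.1 there and of 19.1 to 28.1 elsewhere, with a 5' intensity of 40.4 that lay below the filter. The study noted a slightly more advanced hair cycle in male mice. Sex, hair cycle timing and this array cannot be told apart here. Their part in the results was not tested, so values without this array are given below.

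No epidermal gene separated the genotypes after adjustment over all probe sets. By limma with Benjamini-Hochberg adjustment, 0 of the 38 tested genes were higher and 0 were lower in *Clock* mutant skin, where 0.0232% of all 12955 genes were called higher and 0.0926% lower. At an unadjusted p under 0.05, 2 were higher (*Krt1* and *Klk5*, where 5.24% of all genes were) and 1 was lower (*Flg*, where 4.78% of all genes were). The 2 mutant and the 3 wild-type arrays did not overlap in 4 genes that were higher, *Casp14*, *Klk5*, *Krt1* and *Krt5* (15.7% of all genes), and in 1 that was lower, *Flg* (12.3%).

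**Figure D1:**
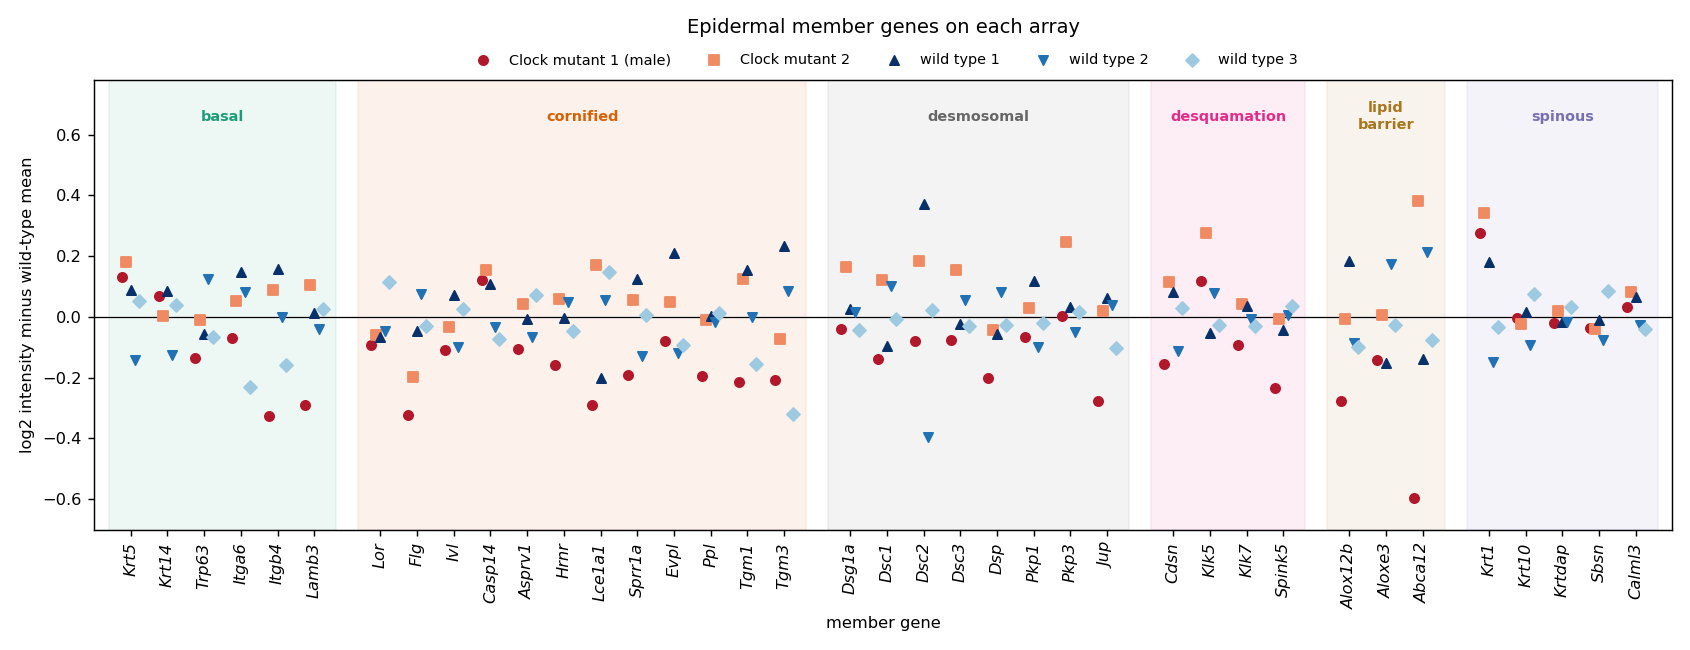
Values of the 38 tested epidermal genes (horizontal axis, grouped by layer) on the 5 arrays, drawn as log2 intensity after subtracting the gene's average over wild type (vertical axis); red and orange mark the *Clock* mutant arrays and blue the wild-type arrays. *Krt1* and *Klk5* have both mutant arrays above all wild-type arrays, *Flg* has both below, and *Clock* mutant replicate 1 gives the lowest point in 22 of the 38 genes on the deposited scaling, but in 9 after median centring of the arrays.

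The differences were small and their errors narrow. The 95% interval of the log2 difference, *Clock* mutant minus wild type, lay within 1 of 0 (a doubling or a halving) for all 38 tested genes, against 94.5% of all genes. It lay within 0.5 of 0 for 34 of the 38, against 61.8% of all genes, and the others were *Krt1*, *Dsc2*, *Tgm3* and *Abca12*. The median size of the difference, without its sign, was 0.068 over the members and 0.12 over all genes, and the median standard error (SE) was 0.089 and 0.129. The tested members were mostly bright, as the plot of difference against intensity shows, and bright probe sets have smaller errors on these arrays.

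**Figure D2:**
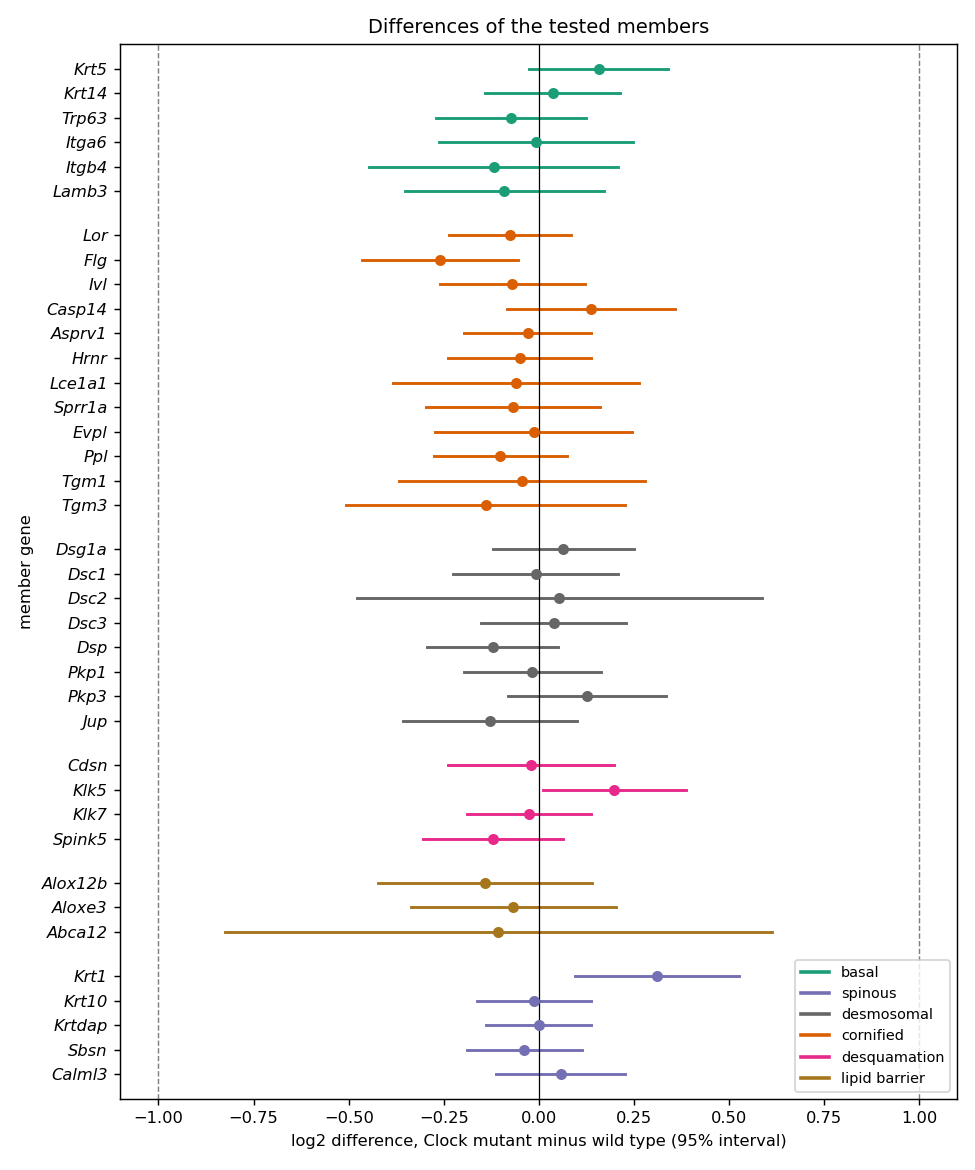
Log2 difference, mutant minus wild type (horizontal axis, point), with its 95% interval from limma (bar) for each tested epidermal gene (vertical axis), coloured by layer; dashed lines mark a log2 difference of 1 in either direction. All 38 bars lie between the dashed lines, and only those of *Krt1*, *Klk5* and *Flg* leave out 0.

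Of the basal layer, 6 of 6 genes were tested, with a median log2 difference of -0.04 against 0.016 over all genes, and 0 at an unadjusted p under 0.05. *Krt5*, which encodes the basal type II keratin, had intensities of 13925 and 14426 in *Clock* mutant replicates 1 and 2 and of 13525, 11521 and 13190 in wild type replicates 1, 2 and 3. The mutant arrays were both above the wild-type arrays, of which replicate 2 was lowest. The log2 difference was 0.16 (SE 0.081, 95% interval -0.026 to 0.34, unadjusted p = 0.0841 by limma). *Krt14*, the type I partner of *Krt5*, had intensities of 11193 and 10712 in the mutants and of 11323, 9794 and 10982 in wild type, so that its groups overlapped (log2 difference 0.036, 95% interval -0.14 to 0.21). *Krt5* and its partner therefore gave no shared separation of the genotypes.

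The transcription factor gene *Trp63*, which is needed to form and keep stratified epithelium, had intensities of 4044 and 4407 in mutant and of 4266, 4839 and 4238 in wild-type skin (log2 difference -0.073, 95% interval -0.27 to 0.12). The groups overlapped here too. The hemidesmosome genes *Itga6* (-0.008) and *Itgb4* (-0.12), whose integrin holds basal cells to the basement membrane, and *Lamb3* (-0.091), a chain of the laminin they bind, also overlapped. *Itgb4* was at 796.2 in *Clock* mutant replicate 1 and at 1060 in replicate 2, while wild type spanned 894.2 to 1113. *Lamb3* behaved alike, with 1945 and 2559 in the mutants on either side of the wild-type values of 2312 to 2421. Without *Clock* mutant replicate 1 the log2 differences of *Itga6*, *Itgb4* and *Lamb3* turned positive, at 0.052, 0.087 and 0.11.

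Of the spinous layer, 5 of 6 genes were tested and their median log2 difference was -0.001. *Krt1*, the type II keratin of the suprabasal layers, had intensities of 11960 and 12530 in *Clock* mutant and of 11201, 8914 and 9656 in wild-type skin. Both mutant arrays lay above all wild-type arrays, with wild type replicate 1 nearest to them. The means were 12245 ± 403 (SD, n = 2) and 9924 ± 1170 (SD, n = 3), a 1.24-fold difference. By limma the log2 difference of *Krt1* was 0.31 (SE 0.095, 95% interval 0.094 to 0.53) with an unadjusted p = 0.01 and an adjusted p = 0.34. In the alternatives that could change it, the sign was kept, from 0.24 without wild type replicate 2 to 0.40 without wild type replicate 1.

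The keratin that pairs with KRT1 did not show this. *Krt10* had intensities of 26772 and 26377 in *Clock* mutant and of 27141, 25182 and 28248 in wild-type skin, with both mutant values inside the wild-type range. Its log2 difference was -0.014 (95% interval -0.16 to 0.14), and the difference between the *Krt1* and *Krt10* values was not tested. *Krt2*, a keratin of the upper spinous layer that is mainly used in tail, ear and sole skin, had intensities of 50.56 and 26.58 in mutant and of 45.74, 28.37 and 20.33 in wild-type skin, all below the filter, and was not tested. The secreted proteins of differentiating keratinocytes gave log2 differences of -0.001 for *Krtdap* (95% interval -0.14 to 0.14) and -0.038 for *Sbsn*, and the calmodulin-like *Calml3* was at 0.057. All 3 had overlapping groups. *Krtdap* had the least spread, at 14747 and 15158 in the mutants and 14779 to 15314 in wild type.

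Of the desmosomal genes, 8 of 9 were tested, with 4 negative and 4 positive log2 differences around a median of 0.015. No group of values was free of overlap. Among the cadherins, *Dsg1a*, a desmoglein of the upper layers, had intensities of 5046 and 5814 in *Clock* mutant and of 5278, 5246 and 5027 in wild-type skin (log2 difference 0.064, 95% interval -0.12 to 0.25). The desmocollins *Dsc1* (-0.009) and *Dsc3* (0.039) were as close to 0, while *Dsc2* (0.053) had an interval of -0.48 to 0.59 at intensities of 145.5 to 247.3. For all 3 desmocollins the mutant arrays lay on either side of, or within, the wild-type values.

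Of the plaque proteins that tie cadherins to keratin, *Dsp*, desmoplakin, had intensities of 11128 and 12402 in the mutants and of 12289, 13546 and 12546 in wild type. *Clock* mutant replicate 1 was lowest and replicate 2 lay just inside the wild-type range. By limma the log2 difference of *Dsp* was -0.12 (SE 0.076, unadjusted p = 0.142). It was negative in all alternatives that could change it, from -0.20 to -0.033. *Jup*, plakoglobin, was at -0.13, with 4053 on *Clock* mutant replicate 1 and 4575 to 5132 on the other 4 arrays. The plakophilins were at -0.018 for *Pkp1* and at 0.13 for *Pkp3*, for which *Clock* mutant replicate 2 was highest, at 3441 against 2801 to 2970 on the other arrays. Without *Clock* mutant replicate 1 the median of the 8 desmosomal genes was 0.14, and without *Clock* mutant replicate 2 it was -0.078, so that its sign rested on which mutant was used.

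The cornified genes leaned one way on the deposited scaling. Of the 12 tested of 13 listed, 11 had a negative log2 difference (46.4% of all genes did), with a median of -0.064, and 11 were negative after quantile normalization, but 3 of 12 after median centring of the arrays (27.8% of all genes). The lean also rested on *Clock* mutant replicate 1: the median was 0.047 without it and -0.18 without *Clock* mutant replicate 2. Set against the wild-type average, these genes had a median of -0.18 on *Clock* mutant replicate 1, 0.047 on replicate 2, and 0.038, -0.025 and -0.012 on wild type replicates 1, 2 and 3. The second mutant array thus lay just above the span of the wild-type arrays.

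*Flg*, which encodes profilaggrin, the precursor of the protein that bundles keratin and yields the skin's moisturizing amino acids, was the lowest of the 38 members by log2 difference. Its intensities were 1427 and 1555 in *Clock* mutant and 1730, 1880 and 1747 in wild-type skin. Both mutant arrays lay below all wild-type arrays. The means were 1491 ± 90.7 (SD, n = 2) and 1786 ± 82.1 (SD, n = 3). By limma the log2 difference of *Flg* was -0.26 (SE 0.091, 95% interval -0.47 to -0.056), with an unadjusted p = 0.0182 and an adjusted p = 0.376. It was negative in all alternatives that could change it, from -0.32 without *Clock* mutant replicate 2 to -0.17 after median centring. Without *Clock* mutant replicate 1 it was at -0.20.

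The other structural proteins of the envelope had overlapping groups. *Lor*, loricrin, the main envelope protein, had intensities of 21226 and 21743 in *Clock* mutant and of 21619, 21905 and 24488 in wild-type skin (log2 difference -0.075, 95% interval -0.24 to 0.085). *Ivl*, involucrin, an early envelope component, had 2765 and 2913 in mutant and 3131, 2783 and 3033 in wild-type skin (log2 difference -0.07). In both genes *Clock* mutant replicate 1 was the lowest array, by a margin smaller than the wild-type range. *Sprr1a* (-0.068), a small proline-rich cross-bridging protein, *Lce1a1* (-0.06), a late envelope protein, *Hrnr* (-0.05), hornerin, and the plakins *Evpl* (-0.014) and *Ppl* (-0.10), envoplakin and periplakin, which seed the envelope at the membrane, were alike in sign. *Sprr1b*, which is induced in stressed epidermis, had intensities of 44.46 and 33.52 in mutant and of 24.96, 16.79 and 44.3 in wild-type skin, below the filter.

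Of the enzymes of this layer, the transglutaminases that cross-link the envelope were at -0.045 for *Tgm1* and -0.14 for *Tgm3*, the protease *Asprv1*, which processes profilaggrin, at -0.03, and *Casp14*, the caspase of cornification that also breaks down filaggrin, at 0.14 (95% interval -0.083 to 0.36). *Casp14* was the only cornified gene with a positive difference. It had intensities of 1239 and 1268 in the mutants and of 1228, 1113 and 1083 in wild type, so that *Clock* mutant replicate 1 and wild type replicate 1 were close. Its dimmer probe set went the other way, with mean intensities of 110.6 in mutant and 170.5 in wild-type skin (log2 difference -0.62, unadjusted p = 0.0195 and adjusted p = 0.377 by limma). The probe sets of *Casp14* thus disagreed in direction.

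Several promoters of the cornified genes hold motifs that the choice of genes did not use. RefSeq promoters of assembly GRCm38.p6, from 250 bases before to 50 bases after the start of transcription, were held for 25 of the 41 genes. The letters TATAAA, searched on both strands, occurred in 9 of the 25 (7 of 11 cornified, 2 of 4 spinous and 0 of the other 10) and in 15.7% of 27025 genes in the table. The AP-1 letters TGANTCA, which read the same on both strands, occurred in 7 of the 25 (5 of 11 cornified and 2 of 4 spinous genes) and in 8.97% of all genes. The E-box CACGTG, to which CLOCK and BMAL1 bind, occurred in 0 of the 25 and in 8.09% of all genes. A match describes only these letters in this window. The stretch from 150 bases to 1 base before the start is shown for the 5 tested genes that hold both TATAAA and TGANTCA, with those letters in capitals. The motifs do not overlap in these stretches.
Lor, chr3:92083143-92083292, minus strand: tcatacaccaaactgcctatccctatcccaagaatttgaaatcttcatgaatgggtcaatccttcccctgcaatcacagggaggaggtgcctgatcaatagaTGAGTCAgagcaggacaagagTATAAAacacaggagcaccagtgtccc
Ivl, chr3:92573736-92573885, minus strand: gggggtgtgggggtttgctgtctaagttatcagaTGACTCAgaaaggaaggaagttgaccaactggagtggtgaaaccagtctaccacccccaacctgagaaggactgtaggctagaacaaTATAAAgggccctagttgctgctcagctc
Sprr1a, chr3:92485882-92486031, minus strand: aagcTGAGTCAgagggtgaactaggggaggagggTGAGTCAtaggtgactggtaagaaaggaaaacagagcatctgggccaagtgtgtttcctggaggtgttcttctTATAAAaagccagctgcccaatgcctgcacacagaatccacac
Flg, chr3:93273396-93273545, plus strand: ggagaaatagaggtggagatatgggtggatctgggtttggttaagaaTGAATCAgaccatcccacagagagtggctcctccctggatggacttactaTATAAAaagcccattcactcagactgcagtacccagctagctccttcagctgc
Krtdap, chr7:30787755-30787904, plus strand: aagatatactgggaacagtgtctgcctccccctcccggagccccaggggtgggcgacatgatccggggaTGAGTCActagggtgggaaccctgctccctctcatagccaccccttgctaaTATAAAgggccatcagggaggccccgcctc

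In these stretches, counted from the start of transcription, TATAAA began at position -27 in *Lor*, -29 in *Ivl*, -43 in *Sprr1a*, -53 in *Flg* and -30 in *Krtdap*. TGANTCA lay upstream of it in each, and *Sprr1a* held it at 2 positions. The log2 differences of these 5 genes were -0.075, -0.07, -0.068, -0.26 and -0.001. Their 95% intervals overlapped, and the differences between them were not tested.

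*Lor*, *Ivl*, *Sprr1a*, *Sprr1b*, *Lce1a1*, *Flg* and *Hrnr* lie on chromosome 3 in the epidermal differentiation complex, a cluster of genes for envelope proteins, with 48 protein-coding genes from the first to the last of them. The 6 that were tested had log2 differences of -0.26 to -0.05, with a median of -0.069. All 6 were lowest on *Clock* mutant replicate 1 on the deposited scaling and 1 of 6, *Flg*, after median centring, when their signs split: *Lor*, *Ivl*, *Hrnr*, *Lce1a1* and *Sprr1a* were at 0.013 to 0.038 and *Flg* stayed negative.

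Of the desquamation genes, *Klk5*, a kallikrein protease that starts the cascade which cuts the last desmosomes, had intensities of 4077 and 4545 in *Clock* mutant and of 3618, 3959 and 3686 in wild-type skin. Both mutant arrays lay above all wild-type arrays, *Clock* mutant replicate 1 only just. The means were 4311 ± 331 (SD, n = 2) and 3754 ± 181 (SD, n = 3). By limma the log2 difference of *Klk5* was 0.20 (SE 0.083, 95% interval 0.011 to 0.39), with an unadjusted p = 0.0404 and an adjusted p = 0.445. It was 0.28 without *Clock* mutant replicate 1 and 0.12 without replicate 2. *Klk7*, the kallikrein that KLK5 activates, was at -0.025, with 6914 and 7605 in the mutants and 7222 to 7574 in wild type. *Cdsn*, corneodesmosin, the junction protein these proteases cut, was at -0.02, and *Spink5*, whose product LEKTI inhibits them, at -0.12 (95% interval -0.30 to 0.064). *Clock* mutant replicate 1 was the lowest array for *Klk7*, *Cdsn* and *Spink5*, and in *Klk7* and *Cdsn* replicate 2 was the highest.

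The 3 lipid barrier genes had negative log2 differences with overlapping groups. *Alox12b* had intensities of 1147 and 1381 in *Clock* mutant and of 1578, 1309 and 1295 in wild-type skin (log2 difference -0.14, 95% interval -0.42 to 0.14). *Aloxe3*, whose lipoxygenase works on the product of the former to build the lipid envelope, was at -0.068 (95% interval -0.34 to 0.20). *Abca12*, the lipid transporter of lamellar granules, was the dimmest tested member. It had 59.6 and 117.5 in the mutants and 81.8, 104.6 and 85.52 in wild type, so that the mutants held both the lowest and the highest array, and its interval of -0.82 to 0.61 was the widest of the 38. The genes of this group gave a median of -0.11, and one of 0.007 without *Clock* mutant replicate 1.

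**Figure D3:**
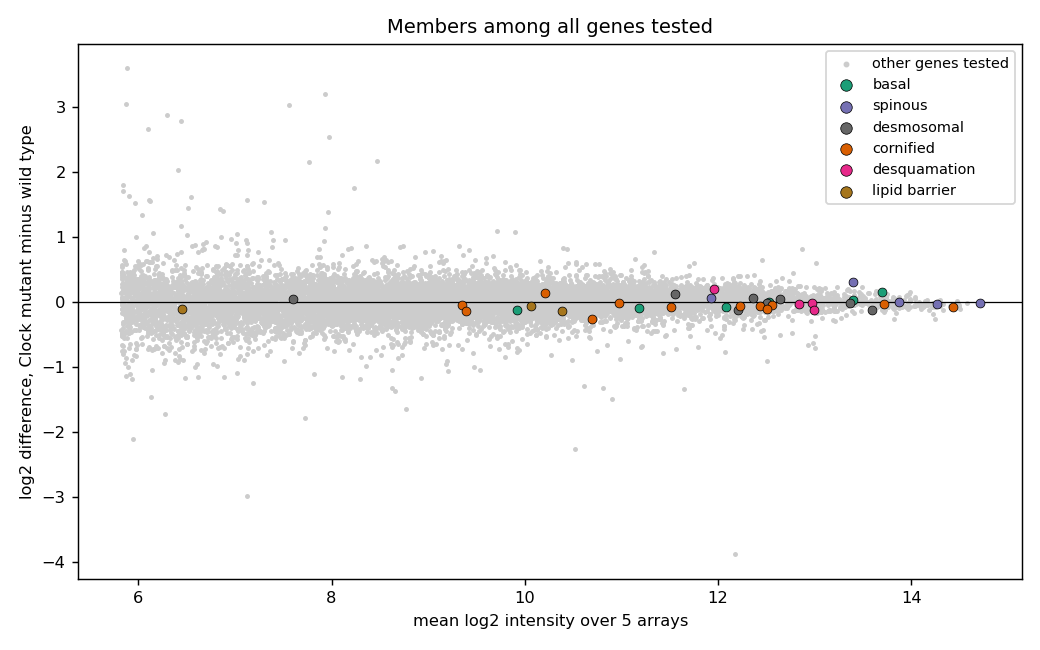
Log2 difference, mutant minus wild type (vertical axis), against the mean log2 intensity over the 5 arrays (horizontal axis) for 12955 genes, with the 38 tested epidermal genes in the colours of their layers. The epidermal genes lie between -0.26 and 0.31, in a band that other genes leave in both directions, and most of them are on the bright side of the plot.

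On the deposited scaling, the median difference over all layers was larger between the 2 *Clock* mutant mice (-0.15) than between the genotypes (-0.034), and after median centring it was not (-0.042 and 0.054). *Clock* mutant replicate 1 was below replicate 2 in 35 of the 38 genes, against 47.1% of all genes, and the median of 0.015 over all genes had the other sign. The exceptions were *Krt14*, *Krt10* and *Sbsn*. Between wild-type mice, replicate 1 was below replicate 2 in 13 of the 38 (47.2% of all genes) and below replicate 3 in 15 (51.4%), and replicate 2 was below replicate 3 in 19 (54.2%). The medians of these 3 wild-type pairs were 0.062, 0.039 and -0.007. The genotype median over the members was -0.034, with 28 of 38 negative, and it was 0.051 without *Clock* mutant replicate 1 and -0.11 without *Clock* mutant replicate 2.

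*Clock* mutant replicate 1 gave the lowest value in 22 of the 38 genes (23.3% of all genes) and the highest in 0 (30.1% of all genes). *Clock* mutant replicate 2 gave the lowest in 0 (17.9%) and the highest in 15 (17.5%). Wild type replicates 1, 2 and 3 gave the lowest in 2, 9 and 5 genes (17.7%, 23.2% and 17.9% of all genes) and the highest in 12, 4 and 7 (14.9%, 17.5% and 20.1%). By layer on the deposited scaling, replicate 1 was lowest in 9 of 12 cornified, 3 of 4 desquamation, 2 of 3 lipid barrier, 4 of 8 desmosomal, 3 of 6 basal and 1 of 5 spinous genes. After median centring, which raises that array most since its median intensity was 105.8 against 114.3 to 117.9, it was lowest in 9 of 38 genes (9.76% of all genes), highest in 8 (51.8%) and below replicate 2 in 27 (28.7%). By layer it was then lowest in 2 of 12 cornified, 1 of 4 desquamation, 2 of 3 lipid barrier, 2 of 8 desmosomal, 2 of 6 basal and 0 of 5 spinous genes. After quantile normalization it was lowest in 23 (20.4%), highest in 1 (32.6%) and below replicate 2 in 35 (44.7%). Negative genotype differences numbered 25 of 38 after quantile normalization (43.0% of all genes) and 10 of 38 after median centring (27.8%), when the median over all genes moved from 0.016 to 0.10. This is the array on which the hair shaft and root sheath genes were highest, and the proliferation list was high there too, with a median of 0.58 above the wild-type mean over 10 genes, against -0.19 in *Clock* mutant replicate 2 and -0.081 to 0.13 in wild type.

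**Figure D4:**
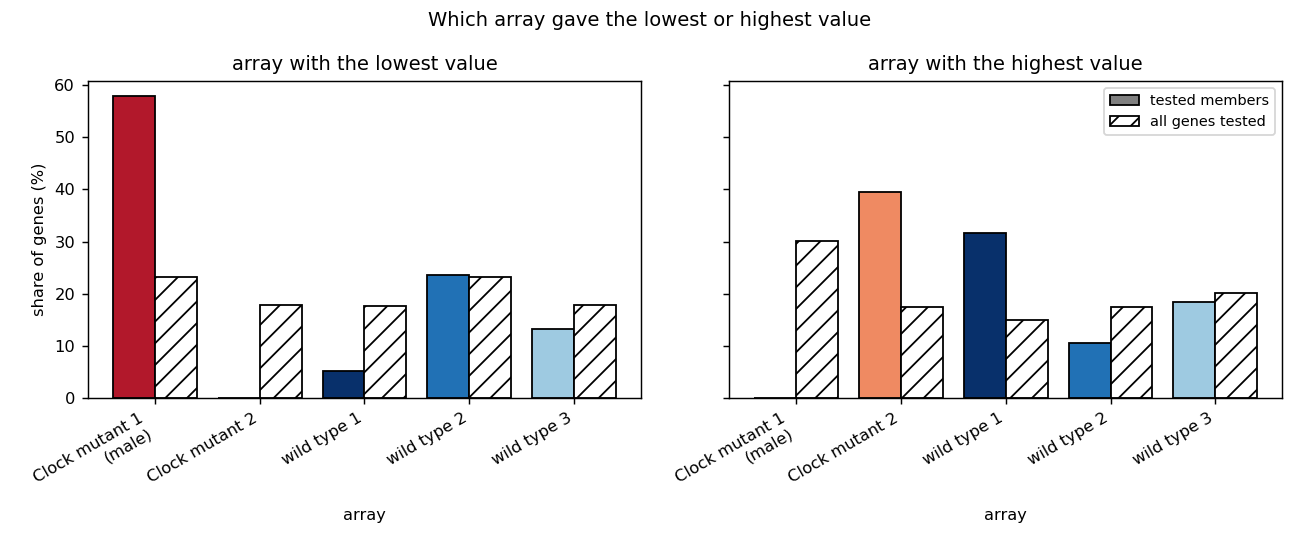
Share of genes (vertical axis, in percent) for which each array (horizontal axis) gave the lowest value (left) or the highest value (right), for the 38 tested epidermal genes (filled bars) and for all 12955 tested genes (hatched bars), on the deposited scaling. *Clock* mutant replicate 1 was lowest in 22 of the 38 genes and highest in 0, and after median centring it was lowest in 9 and highest in 8.

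Other probe sets of the members bear on how far a single probe set can be trusted. Of the 40 genes, 14 had more than 1 probe set of a single symbol, and all 20 further probe sets were tested. Of these, 0 passed the adjusted threshold and 3 had an unadjusted p under 0.05 by limma, where 10.8% of all tested probe sets had one, all 3 with a lower value in *Clock* mutant skin: *Dsp* (-0.33), *Casp14* (-0.62) and *Tgm3* (-0.46). For *Dsp* all 3 probe sets were negative, at -0.33, -0.12 and -0.11, and for *Tgm3* both were. For *Pkp3* the dimmer probe set was at -0.52 (adjusted p = 0.5) and the brighter at 0.13, so that its probe sets disagreed in direction. The 4 probe sets of *Trp63* were all negative, at -0.35 to -0.073. *Krt1*, *Klk5* and *Flg* had 1 probe set each, which leaves their values with no such check.

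A wider list of 176 other epidermal genes gave a like result. Of these, 147 were measured and 130 tested, with 0 past the adjusted threshold, 8 higher and 5 lower at an unadjusted p under 0.05 by limma (5.24% and 4.78% of all genes), and a median log2 difference of -0.015. The 25 tested further envelope genes had a median of -0.018, and the 18 proteases and inhibitors one of -0.065. On *Clock* mutant replicate 1 these lists had medians of -0.11 and -0.18, and on replicate 2 of 0.044 and 0.10. The lowest p of the 130 genes was that of *Cebpb*, a transcription factor of keratinocyte differentiation, with 3258 and 3349 in the mutants and 4120, 5536 and 5026 in wild type (log2 difference -0.56, SE 0.117, adjusted p = 0.181 by limma). Both its mutant values lay below all wild-type values.

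The gap junction gene *Gjb6* had intensities of 166.4 and 116.3 in *Clock* mutant and of 68.55, 75.01 and 62.22 in wild-type skin (log2 difference 1.02, adjusted p = 0.255 by limma). The groups did not overlap, and *Clock* mutant replicate 1 was highest. *Serpinb12*, a protease inhibitor, was at 0.63, *Alox12e*, a lipoxygenase, at 0.24, the kallikrein *Klk12* at -0.72 and the envelope-associated *Nccrp1* at -0.59, all with an unadjusted p under 0.05. Without *Clock* mutant replicate 2, 1 of the 130 genes passed in each direction, *Gjb2* (1.51, adjusted p = 0.0239), a further gap junction gene, and *Rptn* (-0.89, adjusted p = 0.0484), which encodes the envelope protein repetin. Both were named after their values were seen, and with all arrays *Gjb2* was at 0.87 and *Rptn* at -0.51.

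None of the keratins that mark wounded or stressed epidermis passed the adjusted threshold. *Krt6a* had intensities of 5545 and 6904 in mutant and of 8006, 7389 and 7218 in wild-type skin, with both mutant arrays below the wild type (log2 difference -0.28, 95% interval -0.51 to -0.058, unadjusted p = 0.0191 and adjusted p = 0.376 by limma). *Krt17* was at -0.14 and *Krt16* at -0.22, both negative, and *Krt6b* at 0.12 with an interval of -0.90 to 1.14 at intensities of 45.21 to 140.1. *Krt6a* and *Krt17* are also expressed in the resting hair follicle.

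**Figure D5:**
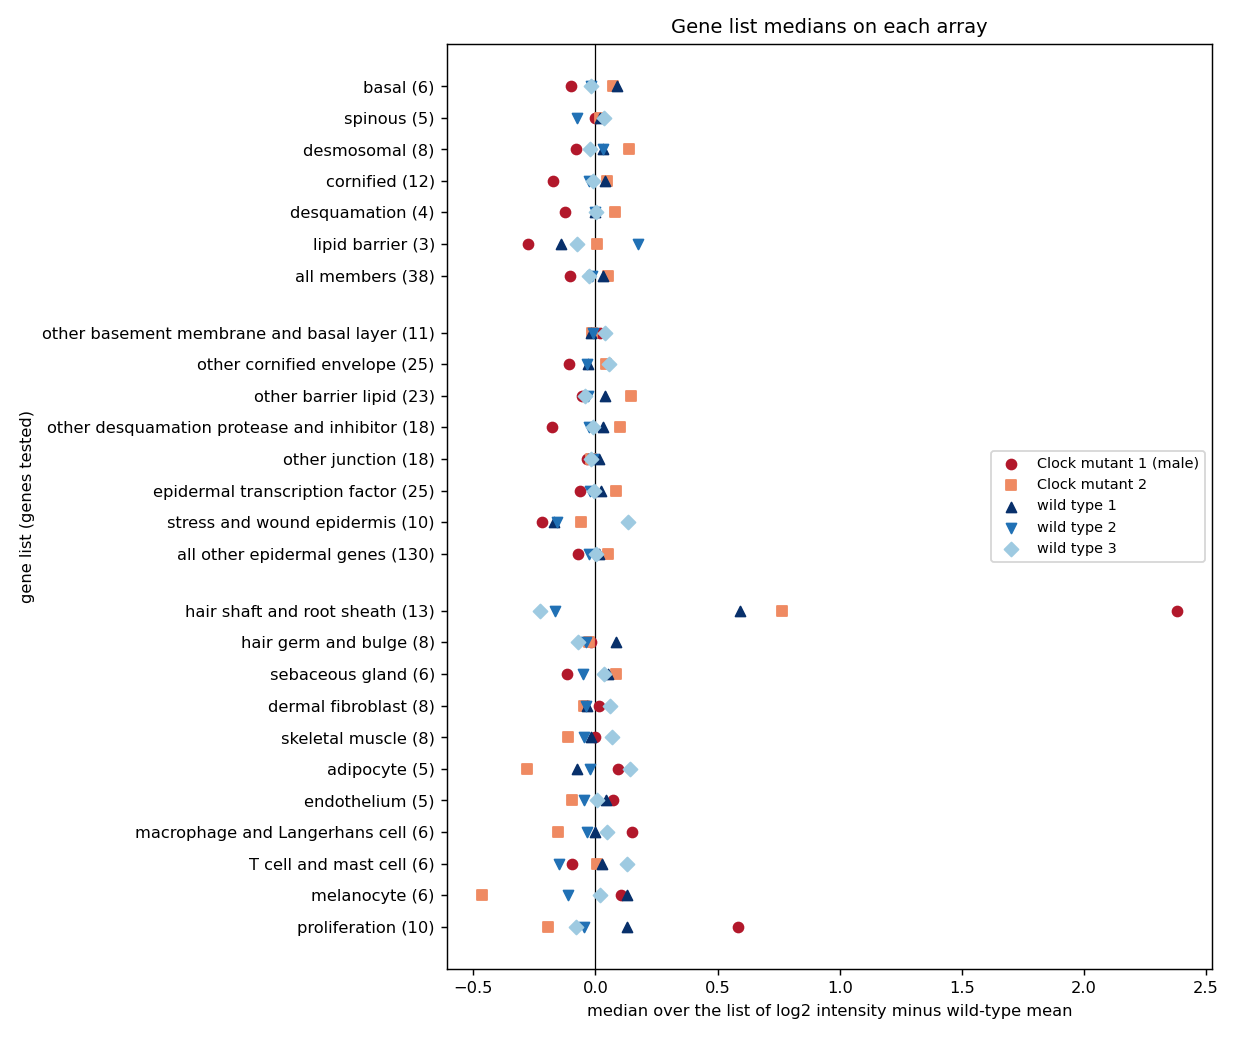
Median over each gene list (vertical axis, genes tested in parentheses) of log2 intensity after subtracting each gene's average over wild type (horizontal axis, deposited scaling), with 1 point per array. The 6 layers of epidermal genes lie between -0.28 and 0.18 on all arrays, while the hair shaft and root sheath list reaches 2.38 on *Clock* mutant replicate 1.

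Lists of other cell types of the skin moved less than the hair shaft and root sheath list. The 8 hair germ and bulge genes, also of the follicle, had medians of -0.018 and -0.025 on *Clock* mutant replicates 1 and 2. In wild type they were at -0.073 to 0.084. On the same 2 mutant arrays 5 endothelium genes were at 0.072 and -0.097, and 6 T cell and mast cell genes at -0.098 and 0.008. On *Clock* mutant replicate 1 the medians relative to the wild-type mean were -0.12 for 6 sebaceous gland genes, 0.013 for 8 dermal fibroblast genes, -0.001 for 8 skeletal muscle genes, 0.092 for 5 adipocyte genes, 0.15 for 6 macrophage and Langerhans cell genes and 0.10 for 6 melanocyte genes. On *Clock* mutant replicate 2 they were 0.085, -0.047, -0.11, -0.28, -0.15 and -0.46. In the same measure the lipid barrier genes were at -0.28 and 0.007 on these 2 arrays, the cornified genes at -0.18 and 0.047, and the spinous genes at -0.003 and 0.019. After median centring these pairs were -0.13 and 0.04, -0.031 and 0.08, and 0.14 and 0.051.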

How the data were processed

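Dorsal skin of 2 *Clock* mutant and 3 wild-type mice was profiled on Affymetrix mouse expression arrays, 1 per mouse, from 11 µg of total RNA. The values are signal intensities, 1 per probe set and array, which the authors made with MAS5 per the labels and deposited on a linear scale. MAS5 scales each array by a single factor. Its version and the scanner settings are not given in the sources used here. MAS5 values are imprecise at low intensity, and precision is limited by there being 5 arrays.

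Of 45101 probe sets, 64 controls were left out. The platform annotation gave 1 symbol to 34945 of the others, several to 932 and none to 9160. Intensities were floored at 1 (2441 values lay below) and taken to log2. Array medians differed by at most 0.156 on that scale, so that the deposited scaling was kept (quantile normalization was set for differences over 0.2). The 27022 probe sets with a mean log2 intensity at or above the 40th percentile (an intensity of 56.7) were fitted with limma 3.58.1 (R 4.3.3; lmFit, eBayes with an intensity trend, two-sided, no covariate), with Benjamini-Hochberg adjustment over all of them and a threshold of 0.05. Medians and counts over lists are descriptions. The step was also run on simulated arrays with independent noise and no shift of a whole array. That run does not tell how often a real difference would be found in these data. Tables were made with Python 3.11.15 and pandas 2.3.3.

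Members and lists were chosen with earlier results of these data known. All members may be named. Of each other epidermal list, the gene with the smallest p in each direction at an unadjusted p under 0.05 is named, with the stress keratins. RefSeq names and promoters are of assembly GRCm38.p6, and all 41 symbols matched.

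Alternative scalings were median centring and quantile normalization. The filter was dropped or set to the 60th percentile, 32 was added before taking log2, the trend was dropped from eBayes, probe sets were averaged per gene, the replicate number entered as a block, and each array was left out in turn.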

Additional observations from a re-analysis of the deposited data

How the results depend on the processing

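In each of the 13 alternatives by limma, 0 epidermal members passed the adjusted threshold, in fits that called between 0 and 201 probe sets over the whole array. *Krt1*, *Klk5*, *Krt5* and *Calml3* stayed positive and *Flg*, *Dsp*, *Ppl*, *Spink5*, *Tgm3* and *Alox12b* stayed negative throughout. Changing or dropping the filter, or dropping the trend, cannot change a log2 difference. Averaging probe sets cannot change it for genes with a single probe set. The block gave the same differences as the fit without wild type replicate 3. Without *Clock* mutant replicate 1, *Ppl* (-0.009), *Spink5* (-0.007) and *Alox12b* (-0.008) were barely negative. *Dsp* was then at -0.044, *Tgm3* at -0.072 and *Flg* at -0.20. With 2 mutants, a fit without one of them assumes that the lone array varies as the wild-type arrays do. Over all probe sets the fits without wild type replicate 2, without wild type replicate 3 and without a trend gave 0 calls, with 1581, 2194 and 2631 at an unadjusted p under 0.05.

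At an unadjusted p under 0.05, where 2 members were higher and 1 was lower, the counts were 1 higher after quantile normalization, 4 higher and 0 lower after median centring, and 0 in each direction without a trend. When single arrays were left out they ranged from 0 to 3 higher and from 0 to 5 lower, with 5 lower without *Clock* mutant replicate 2. Of the other epidermal genes, 8 were higher and 5 lower, and the lower count was 3 after quantile normalization, 2 after median centring, 3 with the filter at the 60th percentile and 3 without a trend, where the higher count was 2. Without single arrays the counts were 3 to 11 higher and 2 to 21 lower, and 0 to 1 passed the adjusted threshold in each direction.

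Median centring moved the median log2 difference of the basal genes to 0.048, of the spinous genes to 0.087, of the desmosomal genes to 0.103, of the cornified genes to 0.024 (from -0.064), of the desquamation genes to 0.066, of all members to 0.054 and of the other epidermal genes to 0.073. It turned the sign of *Trp63* (0.016), *Itga6* (0.08), *Krt10* (0.075), *Krtdap* (0.087), *Sbsn* (0.05), *Dsc1* (0.08), *Pkp1* (0.07), *Lor* (0.013), *Ivl* (0.018), *Asprv1* (0.058), *Hrnr* (0.038), *Lce1a1* (0.028), *Sprr1a* (0.02), *Evpl* (0.074), *Tgm1* (0.043), *Cdsn* (0.069), *Klk7* (0.063) and *Aloxe3* (0.02), as centring raises both mutant arrays relative to wild type. Quantile normalization turned *Krt10* (0.027), *Krtdap* (0.011) and *Abca12* (0.01). Averaging the probe sets of each gene turned *Krt14* (-0.034), *Dsc1* (0.024), *Dsc2* (-0.079), *Dsc3* (-0.039), *Pkp3* (-0.195), *Lor* (0.029) and *Casp14* (-0.24). Each of these genes had a dimmer probe set with the other sign. Why probe sets of the same gene differed, and what turned genes under quantile normalization, was not tested.

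Without single arrays the medians ranged from -0.101 to 0.07 for the basal, -0.078 to 0.138 for the desmosomal, -0.175 to 0.047 for the cornified and -0.125 to 0.08 for the desquamation genes, from -0.106 to 0.051 for all members and from -0.072 to 0.053 for the other epidermal genes. Members whose sign turned ranged from -0.026 to 0.078 (*Krt14*), -0.124 to 0.066 (*Itga6*), -0.326 to 0.087 (*Itgb4*), -0.289 to 0.107 (*Lamb3*), -0.059 to 0.024 (*Krt10*), -0.021 to 0.019 (*Krtdap*), -0.076 to 0.005 (*Sbsn*), -0.039 to 0.166 (*Dsg1a*), -0.138 to 0.121 (*Dsc1*), -0.144 to 0.239 (*Dsc2*), -0.077 to 0.155 (*Dsc3*), -0.067 to 0.041 (*Pkp1*), -0.278 to 0.019 (*Jup*), -0.105 to 0.044 (*Asprv1*), -0.159 to 0.058 (*Hrnr*), -0.291 to 0.171 (*Lce1a1*), -0.191 to 0.055 (*Sprr1a*), -0.078 to 0.091 (*Evpl*), -0.213 to 0.124 (*Tgm1*), -0.155 to 0.116 (*Cdsn*), -0.094 to 0.044 (*Klk7*), -0.143 to 0.02 (*Aloxe3*) and -0.596 to 0.383 (*Abca12*).

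Deviations of arrays with the same replicate number correlated at 0.008 and 0.099 over the tested probe sets. With 2 mutants, their deviations from the group mean mirror each other. These correlations therefore cannot decide whether arrays of the same number were paired. With the replicate number as a block, which leaves wild type replicate 3 without a partner, *Krt10* was at 0.024, *Krtdap* at 0.015, *Sbsn* at 0.005, *Asprv1* at 0.006 and *Lce1a1* at 0.013, and over all probe sets the block gave 26 higher and 80 lower calls, against 4 and 20 without it.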
